A study of Mus musculus with 12 samples.

Results

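The S100 genes encode small proteins that bind calcium, and 9 of them were followed through the maturation of mouse myeloid progenitors: S100a8, S100a9, S100a1, S100a4, S100a6, S100a10, S100a11, S100a13 and S100g. They were listed with levels in these data already known, and they are 9 of the 17 S100 genes among the 23309 genes in the table. Each of the 9 reached more than 100 FPKM in at least 1 library, and the lowest such maximum was that of S100a10, at 102.3 FPKM. The highest level of any of the other 8 S100 genes was 6.0 FPKM, for S100a5. FPKM is a level per kilobase of transcript, here after scaling to synthetic RNAs that were added to each sample, so levels may be compared between genes. All 9 genes passed the filter on low values, a level of 1 FPKM in no fewer than 2 libraries, as did 11516 genes in all. S100a2 and S100a5 were the other S100 genes that passed it; S100a2, named here after its values were seen, stood between 0.155 and 1.35 FPKM.

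The cells were CD117+ bone marrow progenitors of C57BL/6 mice, immortalized with a retrovirus that carries HoxB8 fused to the estrogen receptor. The fusion holds cells immature while estradiol (E2) is present, and its withdrawal releases them to mature. Progenitors came from wild-type littermates (WT) or from mice transgenic for human HMGN1 (HMGN1-OE), a protein that binds nucleosomes. Both genotypes carried the fusion, grew in IL-3 and were taken with E2 present, labelled 0 h, and at 36 and 96 h after its withdrawal, with 2 libraries in each of the 6 groups. E2 was withdrawn from all later samples, so the loss of the hormone and the maturation of the cells cannot be told apart. The libraries of a group are called a and b, letters that pair nothing between groups. The study describes its expression samples as biological duplicates, and the labels do not say whether these came from separate animals or cultures, so p-values speak for these libraries only. Except where stated, they rest on a spread taken from genes of like level and not on how far a gene's own libraries differ. The transgene itself was not analysed here, so the genotypes have no check from the targeted gene.

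S100 proteins change shape when they bind calcium and then attach to target proteins. S100A8 and S100A9 pair as calprotectin, which fills the cytosol of neutrophils, withholds metal ions from microbes and, once released, acts as an alarm signal for other cells. S100A10 differs from the rest in that it no longer needs calcium, and it holds annexin A2 at membranes. S100G, calbindin-D9k, carries calcium through the cells of the gut, and in the uterus its gene responds to estrogen.

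In GENCODE vM21, 8 of the genes lay on chromosome 3, in the order S100a1, S100a13, S100a4, S100a6, S100a8, S100a9, S100a11 and S100a10, and S100g lay on chromosome X. S100a1 and S100a13 point away from each other, and so the DNA between them is upstream of both. S100a8 and S100a9 are neighbours on opposite strands. S100a4 shared 302 of its 584 exonic bases with Gm42674 on the same strand, so its reads and those of Gm42674 may be split by counting. S100g lay within the span of Ctps2 on the other strand, with 0 exonic bases in common. The libraries did not mark strand.

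The sequences upstream of S100a8, S100a9 and S100g are shown because these 3 genes had the widest range of levels, and the stretch between S100a1 and S100a13 because it lies upstream of both. RefSeq promoters were found for 8 of the 9 genes, S100a10 being the exception, and the 250 bases before the start are given for GRCm38.p6, which is not the build of the deposited values. Capitals mark letters that match motifs searched on both strands. For S100a8, chr3:90668821-90669070 on the plus strand, they are ACTTCCT, the reverse complement of the PU.1 core AGGAAGT, and TATAAA. For S100a9, chr3:90695722-90695971 on the minus strand, they are a match to the C/EBP motif TTNNGCAA, read on the other strand. For S100g, chrX:162964600-162964849 on the minus strand, they are TTAAGCAA, a C/EBP match, and AGGTCA and its reverse complement TGACCT, the unit of which an estrogen response element holds an inverted pair. The stretch between S100a1 and S100a13, chr3:90514331-90514434, has 104 bases and is given on the plus strand.
S100a8: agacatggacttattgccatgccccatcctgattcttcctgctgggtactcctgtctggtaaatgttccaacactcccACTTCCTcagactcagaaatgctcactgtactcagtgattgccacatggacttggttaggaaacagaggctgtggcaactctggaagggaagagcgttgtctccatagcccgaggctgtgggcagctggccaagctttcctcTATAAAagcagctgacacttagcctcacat
S100a9: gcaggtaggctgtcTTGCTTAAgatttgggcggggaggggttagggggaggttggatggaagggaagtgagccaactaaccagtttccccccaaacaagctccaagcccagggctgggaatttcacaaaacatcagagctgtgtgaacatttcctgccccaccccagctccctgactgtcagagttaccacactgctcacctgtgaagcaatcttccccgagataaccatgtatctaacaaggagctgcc
S100g: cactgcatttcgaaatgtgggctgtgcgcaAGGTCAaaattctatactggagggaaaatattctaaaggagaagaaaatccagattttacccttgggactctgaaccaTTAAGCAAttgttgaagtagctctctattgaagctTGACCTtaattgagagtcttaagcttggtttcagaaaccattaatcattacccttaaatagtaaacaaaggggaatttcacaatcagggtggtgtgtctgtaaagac
S100a1 and S100a13: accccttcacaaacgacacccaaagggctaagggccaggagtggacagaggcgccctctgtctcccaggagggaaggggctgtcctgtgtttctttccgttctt

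In S100a8 the PU.1 match began 172 bases before the start and TATAAA 30 bases before it. The C/EBP match of S100a9 began 236 bases before its start. In S100g the AGGTCA matches began 220 and 107 bases before the start, and a C/EBP match 142 bases before it. The spaced inverted pair GGTCANNNTGACC was not found in these windows of the 8 genes. These letters are common: among 32851 promoters of the same length, 9.56% held the C/EBP motif, 7.69% the PU.1 core, 12.4% TATAAA and 14% AGGTCA, while 0.0639% held the inverted pair. The S100a8 window had no C/EBP match and the S100a9 window no PU.1 match, so the neighbours shared neither. Outside these, S100a4 held TATAAA and AGGTCA, S100a11 held AGGTCA, and S100a1, S100a13 and S100a6 held none of the motifs searched.

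The markers and the scale of the libraries bear on every result. Progenitor markers (Kit, Cd34, Myb and Mpo) summed to between 1359 and 5528 FPKM at 0 h and to between 30.3 and 450.6 FPKM at 96 h. The sum of the 5 maturing neutrophil markers in the table (Itgam, Mmp8, Camp, Ltf and Cxcr2) rose from between 119 and 249 FPKM at 0 h to between 3901 and 9862 FPKM at 96 h. Mmp8 alone did not rise. It stood at 55.7 to 203.8 FPKM at 0 h and 33.4 to 60.4 FPKM at 96 h in WT. In HMGN1-OE it stood at 55.6 to 63.3 FPKM at 0 h and 12.5 to 15.3 FPKM at 96 h. Ly6g was not analysed here. The eosinophil markers Epx and Prg2 summed to between 982 and 2124 FPKM in the WT libraries at 96 h and to between 200.3 and 497 FPKM in HMGN1-OE. Of the 4 macrophage markers listed, C1qa stood at 0.191 FPKM or less, Mrc1 at 3.00 FPKM or less and Emr1 between 9.44 and 119 FPKM, and the sum was 10.8 to 20.2 FPKM at 96 h. Mast cell and basophil markers (Cpa3, Mcpt8 and Fcer1a) summed to 375 to 726 FPKM at 0 h, 761 to 2539 FPKM at 36 h and 96.7 to 415 FPKM at 96 h. At 96 h erythroid markers summed to at most 6.93, megakaryocyte markers to at most 0.916, B cell markers to at most 0.382 and the T cell marker Cd3e to at most 0.103 FPKM. Erythroid sums reached 40.0 FPKM and megakaryocyte sums 25.2 FPKM at 0 h. The summed FPKM ran from 228955 to 1442573 per library and was lowest at 96 h. The median gene fell by 1.75 on the log2 scale from 0 to 96 h in WT and by 1.28 in HMGN1-OE. In these bulk cultures, fewer cells of a type and less RNA per cell cannot be told apart.

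S100a8 and S100a9, the subunits of calprotectin, were the members with the highest levels at 96 h, outside the 1 library in which S100a9 was near 0. S100a8 stood at 1411 and 451 FPKM in WT libraries a and b at 0 h and at 785 and 499 FPKM in HMGN1-OE. At 36 h it stood at 1347 and 533 FPKM in WT and at 309 and 131 FPKM in HMGN1-OE. At 96 h it reached 69948 and 29366 FPKM in WT and 54572 and 83718 FPKM in HMGN1-OE. Each library at 96 h thus lay far above every library at 0 or 36 h, and the genotypes overlapped. S100a8 was the highest of all 23309 genes in the 4 libraries at 96 h.

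From 0 to 96 h, S100a8 rose by 5.83 on the log2(FPKM + 1) scale in WT (limma SE 0.63, adjusted p = 3.07e-18, n = 2 against 2) and by 6.75 in HMGN1-OE (SE 0.63, adjusted p = 2.39e-24). limma took the spread of each gene from its trend over expression, so these errors leave out how far a gene's own libraries differ. Calls here are adjusted p-values under 0.05 from limma over all 11516 genes. Between 0 and 96 h limma called 81.5% of genes in WT and 67.5% in HMGN1-OE: 4.31% of tested genes higher in WT and 5.08% in HMGN1-OE, with 77.2% and 62.4% called lower. Among the 11516 genes tested, S100a8 had the rank 21 from the top by log2 change in WT and the rank 3 in HMGN1-OE. The call held under every alternative tried, with adjusted p-values between 5.57e-19 and 0.00475 in WT and between 6.75e-29 and 0.00932 in HMGN1-OE. The highest synthetic RNA stood at 1034 to 1131 FPKM in the libraries at 96 h, so S100a8 lay outside the range in which the scaling was set. S100a9 lay outside it as well in the 3 libraries at 96 h in which it was high. The size of these rises is therefore less well fixed than their direction.

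**Figure D1:**
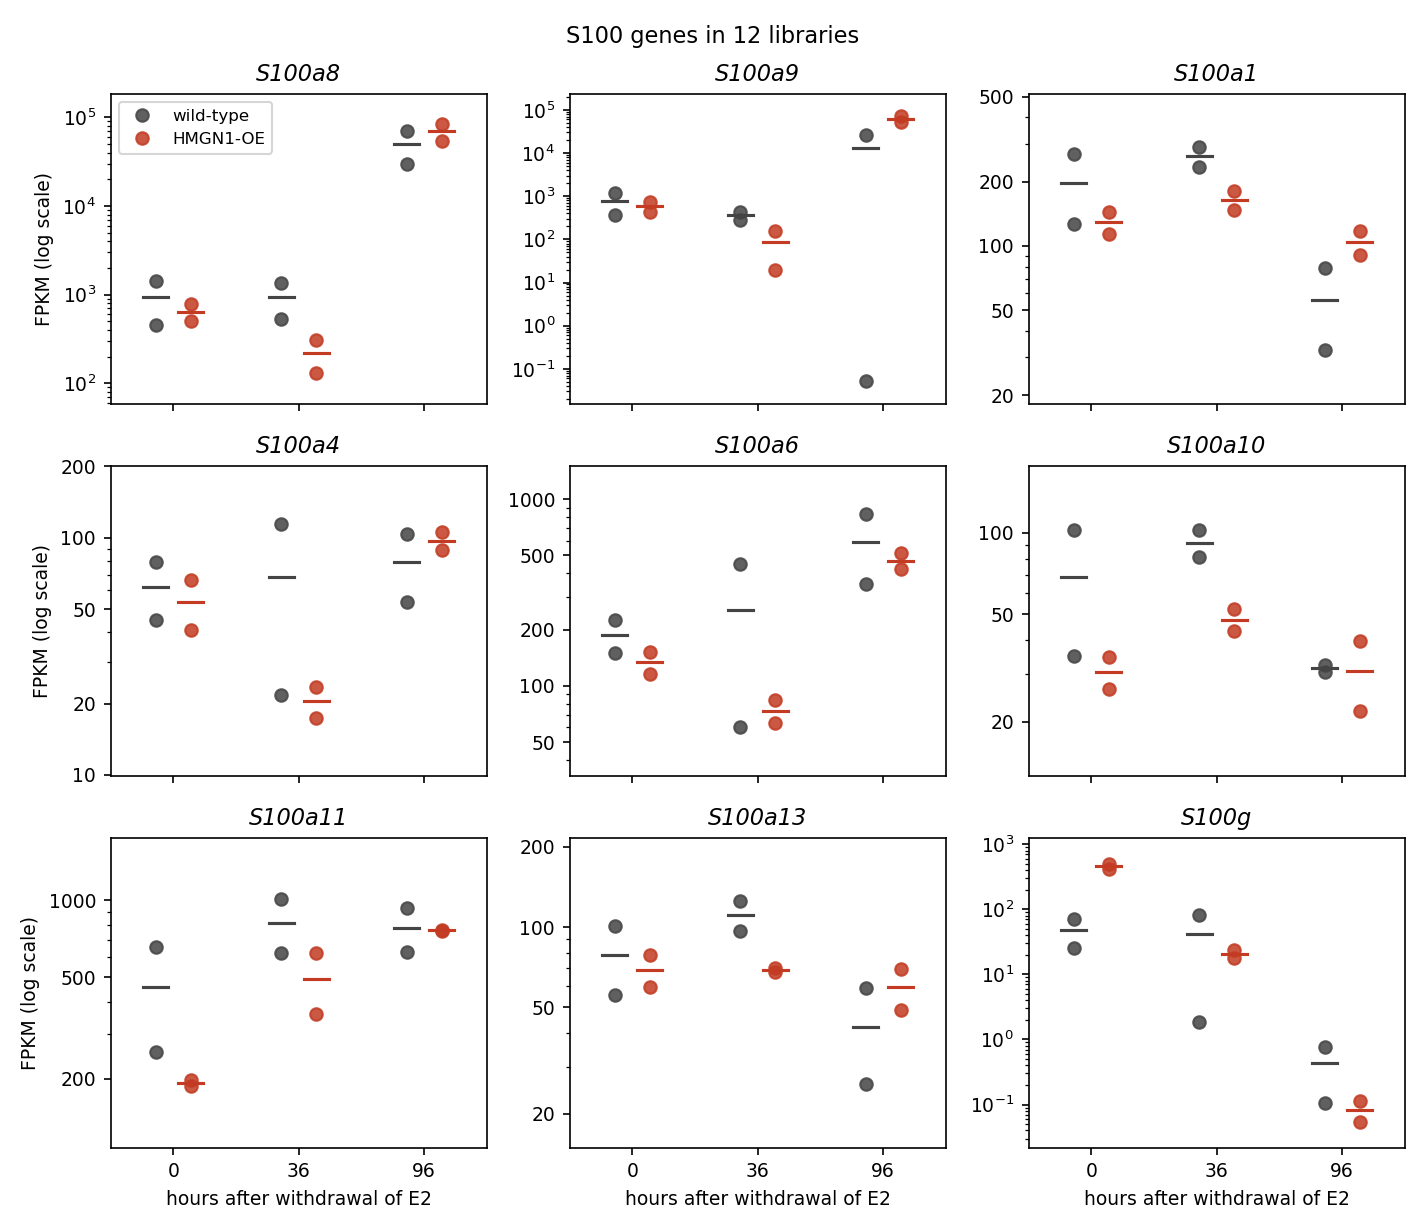
Levels of the 9 S100 genes in FPKM (vertical, log scale, a different range in each panel) by hours after withdrawal of E2 (horizontal); each point is 1 library, gray for wild-type and red for HMGN1-OE, and bars are group means. S100a8 rose in the 4 libraries at 96 h, S100a9 in 3 of them with the fourth at 0.0511 FPKM, and S100g was below 1 FPKM in all 4.

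S100a9 stood slightly below S100a8 at 0 h and at 96 h, except in 1 library at 96 h, and further below it at 36 h. It stood at 1210 and 367 FPKM in WT at 0 h and at 744 and 437 FPKM in HMGN1-OE. At 36 h it stood at 440 and 276 FPKM in WT and at 158 and 19.4 FPKM in HMGN1-OE. At 96 h it reached 51875 and 73461 FPKM in HMGN1-OE and 26546 FPKM in WT library b, where it was the second highest gene in each. In WT library a at 96 h it was listed at 0.0511 FPKM, rank 23308 of 23309 genes, against a lowest value of 0.0498 FPKM in that library.

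That library was chosen for notice by this value, so what follows on it is a description. Its S100a8 stood at 69948 FPKM, the second highest of the 12 libraries, and its Camp, a neutrophil granule protein, at 7470 FPKM, the highest. In the other 3 libraries at 96 h, 15 genes reached at least 1000 FPKM in each, and S100a9 was the only 1 of them under 1 FPKM in WT library a, where the other 14 stood at 2768 FPKM or more. A criterion of under 1 FPKM in a single library and at least 100 FPKM in the other 11 was met by Rpl34-ps1, in HMGN1-OE library a at 96 h, and not by S100a9, whose level was 19.4 FPKM in a library at 36 h. With the comparison limited to the 3 other libraries at 96 h, a choice made after the values were seen, Mir27a and S100a9 met it in WT library a. Mir27a stood at 0.173 FPKM or less in 7 libraries and at 122.6 FPKM or more in the other 5. Whether the value of S100a9 is a level or a failed estimate cannot be told from the table.

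Results for S100a9 that involve WT at 96 h are thus given with and without that library, and without a test. From 0 to 96 h in WT the log2 change was -2.0 with both libraries and 5.31 without library a. The log2 difference of HMGN1-OE from WT at 96 h was 8.53 with both libraries and 1.22 without library a. In HMGN1-OE, where both libraries were high, S100a9 rose by 6.76 on the log2 scale from 0 to 96 h (limma SE 0.61, adjusted p = 6.75e-26), the rank 2 from the top of all genes tested. That call was lost with no filter on low values (adjusted p = 0.259), with each gene's own variance (0.211) and after centring of the libraries on their medians (0.0926). The adjusted p-value ran from 3.04e-30 to 0.259 over the alternatives. The spread of S100a9 in these settings takes in WT library a at 96 h, which the comparison does not use: with no filter the SE was 3.85, and 1.06 without that library. Without it the call held with no filter (adjusted p = 0.00685), with each gene's own variance (0.0132) and with centred libraries (0.000353), a combination of settings added after the values were seen.

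The ratio of S100a8 to S100a9 is a measure within a library and does not depend on scaling by a constant. The loess step of the authors, which varies with level, can still move it. It was 1.17 and 1.23 in WT and 1.05 and 1.14 in HMGN1-OE at 0 h. By 36 h the ratio was 3.06 and 1.93 in WT and 1.96 and 6.75 in HMGN1-OE, above all libraries at 0 h. It returned to 1.11 in WT library b and to 1.05 and 1.14 in HMGN1-OE at 96 h, close to the values at 0 h. WT library a at 96 h is left out of these ratios, since its S100a9 was near 0. In the other 11 libraries S100a8 exceeded S100a9 at every time, by the most at 36 h. The ratio is given as a description and was not tested.

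As a share of the summed FPKM of a library, S100a8 made up 15.6% and 12.8% in WT and 13.5% and 14.97% in HMGN1-OE at 96 h. At 0 and 36 h its share lay between 0.0146% and 0.207%. Together S100a8 and S100a9 made up 24.4% in WT library b, 26.3% and 28.1% in HMGN1-OE, and 15.6% in WT library a. The other 7 members together made up 0.288% to 0.512% at 96 h and 0.0829% to 0.148% before. These are shares of summed FPKM and not of reads, and the loess step can move them too.

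**Figure D2:**
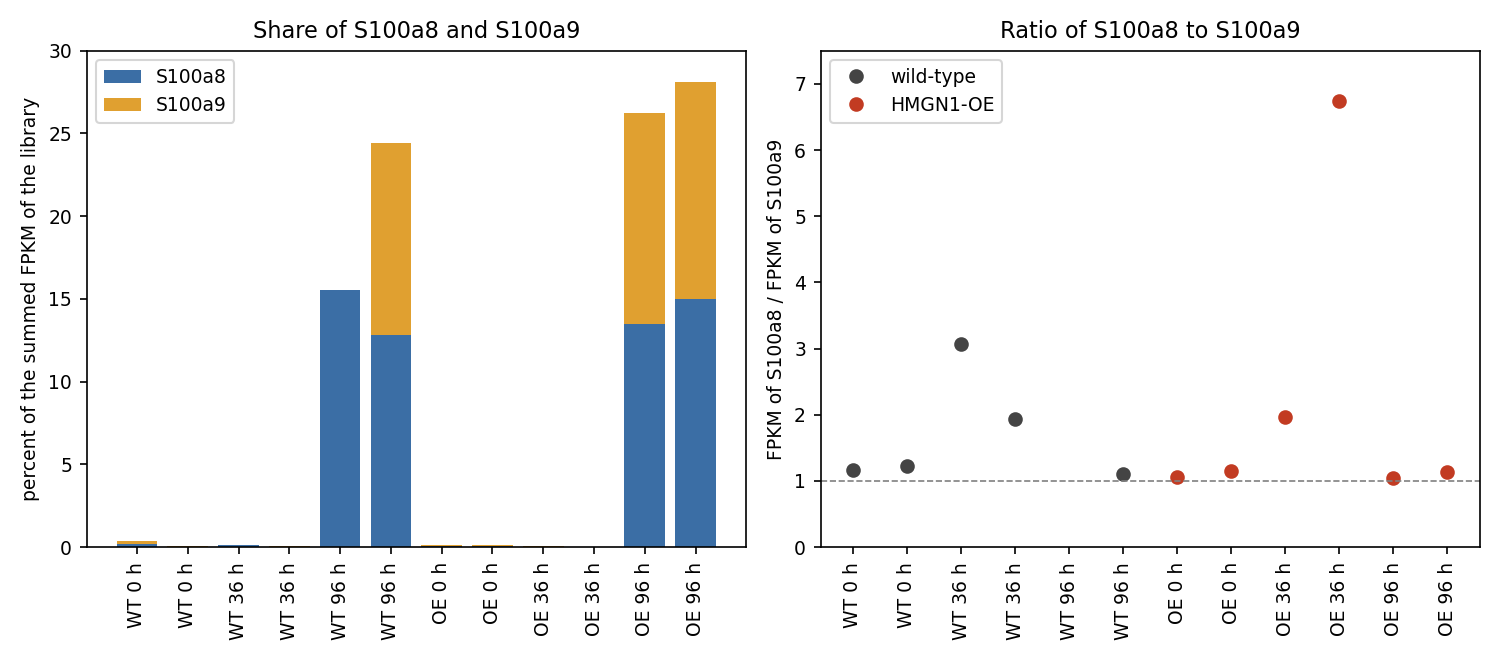
Left, the share of S100a8 (blue) and S100a9 (gold) in the summed FPKM of each library in percent; right, the ratio of the FPKM of S100a8 to that of S100a9, with a dashed line at 1 and WT 96 h library a left out. Both genes together reach 24.4% to 28.1% in 3 libraries at 96 h, and the ratio is highest at 36 h, from 1.93 to 6.75.

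S100a6, S100a4 and S100a11 are expressed in many tissues and attach to annexins and the cytoskeleton. S100a6, calcyclin, stood at 224 and 149 FPKM in WT and 152 and 116 FPKM in HMGN1-OE at 0 h. At 96 h it stood at 828 and 351 FPKM in WT and 421 and 513 FPKM in HMGN1-OE. The libraries at 96 h lay above those at 0 h in both genotypes. The rise was 1.55 in log2 in WT (limma SE 0.59, adjusted p = 0.0116) and 1.80 in HMGN1-OE (SE 0.59, adjusted p = 0.00509). Neither call held with no filter (adjusted p = 0.217 and 0.168) or with each gene's own variance (0.170 and 0.136), and the adjusted p-values ran from 0.000837 to 0.217 in WT and from 0.000442 to 0.168 in HMGN1-OE. In WT it was also lost without WT library b at 0 h, at 1.26, and without WT library a at 96 h, at 0.94. In HMGN1-OE it was lost without library b at 0 h, at 1.61, and without library b at 96 h, at 1.66.

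At 36 h, S100a6 stood at 60.3 and 449.5 FPKM in the 2 WT libraries and at 63.3 and 84.3 FPKM in HMGN1-OE. WT library b exceeded library a by 7.45-fold there, when the median gene tested differed by 1.26-fold between these libraries. S100a4, linked to cell motility through nonmuscle myosin, differed in the same direction, at 21.6 and 114.7 FPKM, a ratio of 5.30. S100g differed by 44.9-fold, at 1.84 and 82.5 FPKM. Markers of more than 1 cell type also differed between WT libraries at 36 h. Of the eosinophil markers, Prg2 ran from 5.80 to 49.2 FPKM and Epx from 1.53 to 3.13 FPKM. Cd34 ran from 264 to 1105 FPKM, Cpa3 from 554 to 2013 FPKM and Mcpt8 from 207 to 524 FPKM. Kit (63.3 to 71.1 FPKM), Myb (476 to 546 FPKM) and Mpo (5507 to 7066 FPKM) differed less. Their part in these differences was not tested.

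From 36 to 96 h in HMGN1-OE, S100a6 rose by 2.65 (adjusted p = 4.53e-05) and S100a4 by 2.21 (limma SE 0.55, adjusted p = 0.000266). S100a4 stood at 17.4 and 23.4 FPKM at 36 h and at 89.3 and 105.6 FPKM at 96 h, after 66.3 and 41.0 FPKM at 0 h. Without the filter the adjusted p-values were 0.0523 and 0.0562, and with each gene's own variance 0.0511 and 0.0552. In WT, the call for S100a6 from 36 to 96 h, 1.70 with adjusted p = 0.00486, depended on single libraries. It was 0.26 without library a at 36 h and 1.08 without library a at 96 h, each of which ended the call, and 3.14 without library b at 36 h. It was also lost with no filter (0.159) and with each gene's own variance (0.131). S100a4 in WT stood at 45.0 and 79.5 FPKM at 0 h and at 53.9 and 103.9 FPKM at 96 h, a log2 change of 0.32 (adjusted p = 0.588).

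S100a11, which binds annexin A1, ranged from 187 to 1011 FPKM, the highest maximum after those of S100a8 and S100a9. In HMGN1-OE at 36 h it stood above both, and in HMGN1-OE at 0 h below both and below S100g. It stood at 199 and 187 FPKM in HMGN1-OE at 0 h, at 621 and 360 FPKM at 36 h and at 762 and 766 FPKM at 96 h. Its rise from 0 to 96 h in HMGN1-OE was 1.98 in log2 (limma SE 0.61, adjusted p = 0.00293), and the call held under every alternative, with adjusted p-values from 7.24e-05 to 0.0368. In WT it stood at 256 and 657 FPKM at 0 h, 1011 and 624 FPKM at 36 h and 938 and 627 FPKM at 96 h. The WT libraries at 0 and 96 h overlapped, and the log2 change was 0.90 (adjusted p = 0.158), which with centred libraries was 2.75 and called (adjusted p = 0.000136). The interaction was 1.08 (adjusted p = 0.810), so a difference between the genotypes in this rise was not shown.

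S100a1, S100a13 and S100a10 had lower levels at 96 h than at 36 h in WT. S100a1, best known from heart muscle, fell from 235 and 290 FPKM to 79.1 and 32.6 FPKM, by 2.34 in log2 (adjusted p = 8.56e-05). S100a10 fell from 102.3 and 81.0 FPKM to 30.6 and 32.5 FPKM, by 1.5 (adjusted p = 0.00702). S100a13, which takes part in the export of proteins that lack a signal peptide, fell from 96.6 and 124.9 FPKM to 59.0 and 25.8 FPKM, by 1.47 (adjusted p = 0.0102). In the same comparison limma called 86.3% of genes lower, and the median gene fell by 2.21, so S100a10 and S100a13 fell less than the median gene. In libraries centred on their medians, S100a10 and S100a13 had log2 changes of 0.82 (adjusted p = 0.0662, not called) and 0.86 (adjusted p = 9.92e-05, called higher), and S100a1 a change of -0.01 (not called). The called fall of S100a13 was thus a called rise after centring. The call for S100a10 was lost without WT library a at 36 h, at -1.34. The call for S100a13 was lost without WT library b at 36 h, at -1.28, and without WT library b at 96 h, at -0.89.

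In HMGN1-OE the same 3 genes were not called between any times in the values as deposited. S100a1 stood at 145 and 114 FPKM at 0 h, 181 and 147 FPKM at 36 h and 90.2 and 117.5 FPKM at 96 h. S100a10 stood at 34.7 and 26.4, 52.1 and 43.3, and 21.9 and 39.7 FPKM at these times. S100a13 stood at 79.0 and 59.6, 70.5 and 68.1, and 49.1 and 70.0 FPKM. Their changes from 0 to 96 h were -0.31, -0.04 and -0.22 in log2 and turned to 0.997, 1.28 and 1.09 with centred libraries, where all 3 were called. In WT from 0 to 96 h, S100a1 fell from 127 and 268 FPKM at 0 h, by 1.84 (adjusted p = 0.00238), and its change was 0.01 with centred libraries. That call was lost without WT library b at 0 h, at -1.30, and without WT library b at 96 h, at -1.21. The differences between the genotypes in the changes from 0 to 96 h, 1.52, 0.87 and 0.70 for S100a1, S100a10 and S100a13, each had an adjusted p of 0.810.

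Within a library, ranks among all 23309 genes do not depend on scaling by a constant, although the loess step of the authors can move them. The rank of S100a11 lay between 283 and 833 at 0 h and between 24 and 85 at 96 h, where 1 is the highest gene. S100a6 moved from ranks between 460 and 1363 to ranks between 46 and 127, and S100a4 from between 2376 and 2658 to between 210 and 913. S100a13 moved from between 1842 and 2134 to between 780 and 867, although its FPKM was not higher. S100a1 moved from between 752 and 1174 to between 429 and 674. S100a10 moved from between 1974 and 4247 to between 675 and 1981. These ranks are descriptions and were not tested.

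S100g, calbindin-D9k, was the member with the largest fall. It stood at 71.7 and 25.6 FPKM in WT and at 416 and 499 FPKM in HMGN1-OE at 0 h. At 36 h it stood at 1.84 and 82.5 FPKM in WT and at 23.3 and 18.2 FPKM in HMGN1-OE. It ended at 0.771 and 0.105 FPKM in WT and at 0.112 and 0.0545 FPKM in HMGN1-OE at 96 h. The value that most genes without signal share was 0.0967 to 0.105 FPKM, so S100g was close to it or below it in 3 of these libraries. The HMGN1-OE libraries at 0 h were the highest of the 12, and the libraries at 96 h the lowest.

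In the comparison of genotypes at 0 h, S100g was higher in HMGN1-OE by 3.38 in log2 (limma SE 0.50, adjusted p = 2.86e-09), the rank 13 from the top of 11516 genes. It was the only member called, where 1.36% of genes were called, 0.799% higher. The libraries did not overlap, as in 3.26% of genes with HMGN1-OE higher. The call was lost with no filter (adjusted p = 1.0), with centred libraries (0.715), with limma without the trend (0.0516) and with each gene's own variance (1.0), while leaving out any single library kept it. The log2 change itself was 3.51 with centred libraries. Of the 4 progenitor markers, Mpo stood at 540 to 642 FPKM in HMGN1-OE and at 2107 to 4406 FPKM in WT at 0 h, and Kit at 12.1 to 13.4 and 24.99 to 47.6 FPKM. Cd34 and Myb overlapped between the genotypes, at 467 to 695 and 493 to 604 FPKM for Cd34 and 238 to 369 and 248 to 470 FPKM for Myb. The part of these markers in the difference of S100g was not tested.

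S100g then fell in both genotypes. From 0 to 96 h it fell by 4.97 in log2 in WT (limma SE 0.50, adjusted p = 2.08e-21) and fell by 8.72 in HMGN1-OE (SE 0.50, adjusted p = 6.19e-65), the rank 3 from the bottom. These calls held under every alternative, with adjusted p-values up to 0.0481 and 0.0121. The sizes depend on the pseudocount, since the later values lie near the floor: with 0.1 FPKM in place of 1 they were -6.67 and -11.3. In HMGN1-OE the fall was present by 36 h, at -4.40 (adjusted p = 6.20e-16), a call that was lost with no filter (adjusted p = 0.963), centred libraries (0.163) and each gene's own variance (1.0). In WT the change to 36 h was -1.51 (adjusted p = 0.287), with libraries that differed by 44.9-fold. From 36 to 96 h it fell by 3.46 in WT, where the change was -1.02 without WT library b and -5.90 without WT library a at 36 h, and the former ended the call. With centred libraries this change was -1.14 (adjusted p = 0.431), and the call was also lost with no filter (0.0682) and with each gene's own variance (0.0677).

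The fall of S100g was larger in HMGN1-OE. The interaction of genotype with time was -2.89 from 0 to 36 h (limma SE 0.70, adjusted p = 0.0101) and -3.75 from 0 to 96 h (SE 0.70, adjusted p = 3.07e-05), where 0.504% and 0.677% of genes were called, 0.356% and 0.339% with a lower value. The difference between the genotypes was -0.37 in log2 at 96 h (adjusted p = 0.859), after 3.38 at 0 h. The interaction to 36 h was -0.45 without WT library b and -5.33 without WT library a at 36 h. Both interactions lost their call without WT library b at 0 h, at -2.16 and -3.02, and with no filter, centred libraries, no trend or each gene's own variance. The interaction to 36 h also lost it with a pseudocount of 0.1 FPKM, without HMGN1-OE library b at 0 h, at -2.76, and without either HMGN1-OE library at 36 h, at -3.06 and -2.72, or at 96 h.

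**Figure D3:**
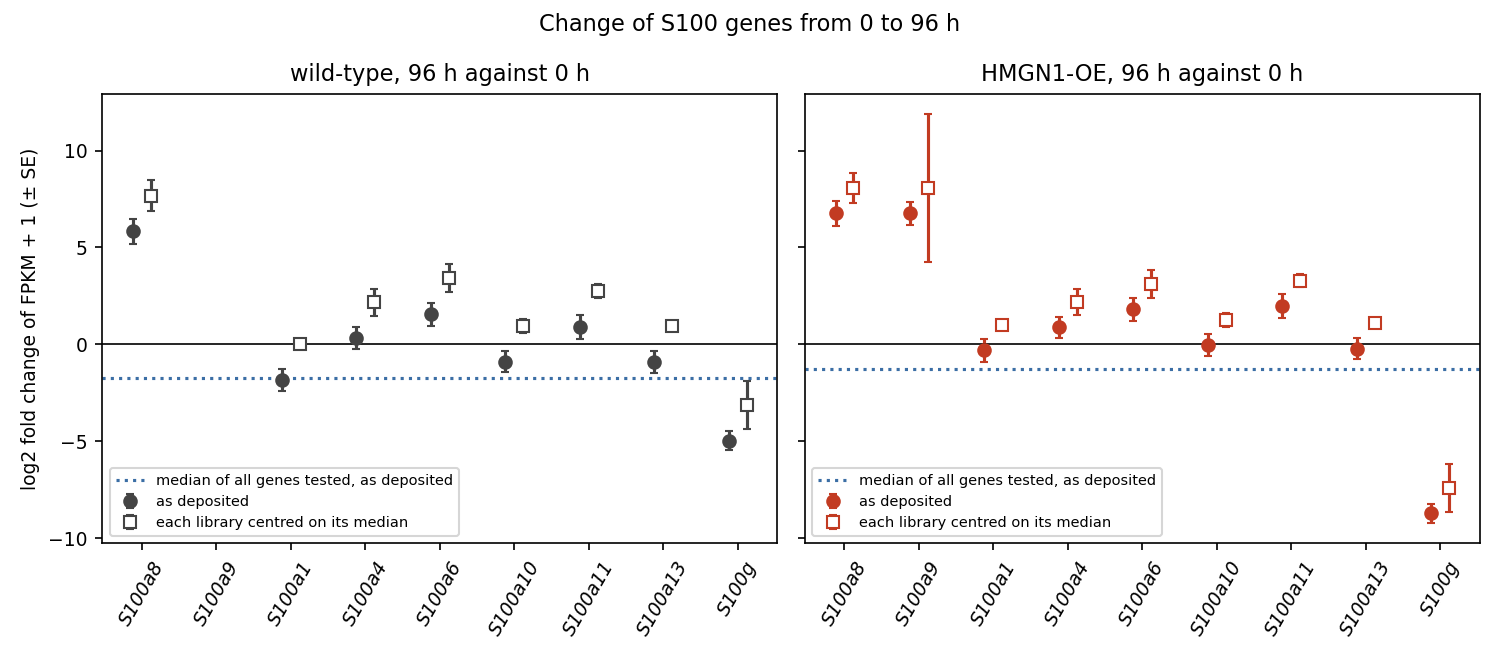
Log2 fold change of FPKM + 1 from 0 to 96 h (vertical, with limma SE) for each S100 gene (horizontal) in wild-type (left) and HMGN1-OE (right); filled circles use the values as deposited, open squares each library centred on its median, and the dotted line is the median of all genes tested. S100a8 rises by 5.83 and 6.75, the change of S100g is -4.97 and -8.72, and S100a9 in wild-type is left out because 1 of its libraries stood at 0.0511 FPKM.

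Counted over the members from 0 to 96 h, 2 were called higher and 2 lower among 8 in WT, beside 4.31% and 77.2% of all genes, and 4 higher and 1 lower among 9 in HMGN1-OE, beside 5.08% and 62.4%. The median change was -0.29 in WT and 0.88 in HMGN1-OE, where the median of all genes was -1.75 and -1.28. In libraries centred on their medians, 6 of 8 were called higher and 1 lower in WT, beside 36.5% of all genes called higher and 33.8% lower. In HMGN1-OE, 7 of 9 were called higher and 1 lower, beside 30.9% and 32.5%. The direction of S100a1, S100a10 and S100a13 thus depends on the scaling. S100a4 was called in neither genotype from 0 to 96 h as deposited and in both with centring, at 2.16 and 2.19.

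Between 0 and 36 h, 0 of 9 members were called in WT, beside 0.617% of genes, with S100g at an unadjusted p under 0.05. In HMGN1-OE 2 of 9 were called, both lower, beside 1.8% of genes called and 1.12% called lower. These were S100g and S100a9, which fell by 3.33 (limma SE 0.61, adjusted p = 8.81e-06). S100a9 was not called without HMGN1-OE library b at 36 h, at -1.85, nor without either WT library at 0 h, nor with no filter, centred libraries, no trend or each gene's own variance. With WT library a at 96 h also left out, S100a9 was called with no trend (adjusted p = 0.000172) and not with the other 3 settings, where adjusted p-values ran from 0.167 with centred libraries to 1.0. From 36 to 96 h, 89.5% of genes were called in WT and 69.0% in HMGN1-OE. Among the members, 2 of 8 were called higher and 4 lower in WT, beside 3.15% and 86.3% of genes, and 4 of 9 higher and 1 lower in HMGN1-OE, beside 4.02% and 64.9%. S100a8 rose by 5.74 and 8.39 over this interval and S100a9 by 10.08 in HMGN1-OE. The call for S100a9 was lost there with no filter (adjusted p = 0.0910) and with each gene's own variance (0.0857), and it held in both (0.00400 and 0.0137) without WT library a at 96 h.

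In the comparison of genotypes at 36 h, the log2 difference of S100a9 in HMGN1-OE was -2.62 (limma SE 0.61, adjusted p = 0.00238). S100a9 was the only 1 of 9 members called, where 1.26% of genes were called and 0.842% lower. S100g differed by 0.49 (limma, adjusted p = 0.496), by 2.93 and called (adjusted p = 0.000467) without WT library b at 36 h, and by -1.95 (adjusted p = 0.122) without WT library a, so its direction there was set by which WT library was kept. Without HMGN1-OE library b, in which S100a9 stood at 19.4 FPKM, the difference was -1.14 (adjusted p = 0.715), and without library a it was -4.10. The call was also lost without WT library a or b at 0 h, without WT library a at 36 h, at -2.29, and with no filter, centred libraries, no trend or each gene's own variance, over a range of adjusted p from 7.31e-05 to 1.0. With WT library a at 96 h also left out, it held with no trend (adjusted p = 0.00932) and was lost with the other 3, where adjusted p-values ran from 0.398 to 0.948. S100a8 was lower by 2.07 (adjusted p = 0.0772), and it was called without either WT library at 96 h (adjusted p = 0.0119 and 0.0125). Libraries of 6 members did not overlap with HMGN1-OE lower, a pattern that 84.4% of all genes had, and the median gene was lower by 0.54. The maturing neutrophil markers summed to 15.4 to 30.4 FPKM in HMGN1-OE and 71.3 to 116 FPKM in WT at 36 h, and their part in the S100a9 difference was not tested.

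At 96 h, 0 of the 8 members tested were called between genotypes by limma, and 0 had an unadjusted p under 0.05, beside 0.669% of genes called. Their differences ran from -0.37 for S100g to 1.0 for S100a1. S100a8 differed by 0.58 (limma SE 0.63, adjusted p = 0.859), and by -0.05 without WT library b. S100a1 was the member of these 8 whose libraries did not overlap, higher in HMGN1-OE, as in 10.2% of genes. At 0 h S100a8 differed by -0.35 (adjusted p = 1.0), and by 0.47 without WT library a. S100a10 and S100a11 were lower in HMGN1-OE at 0 h without overlap, by 0.96 and 1.08 in log2 (adjusted p = 1.0 for each), as 4.67% of genes were.

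**Figure D4:**
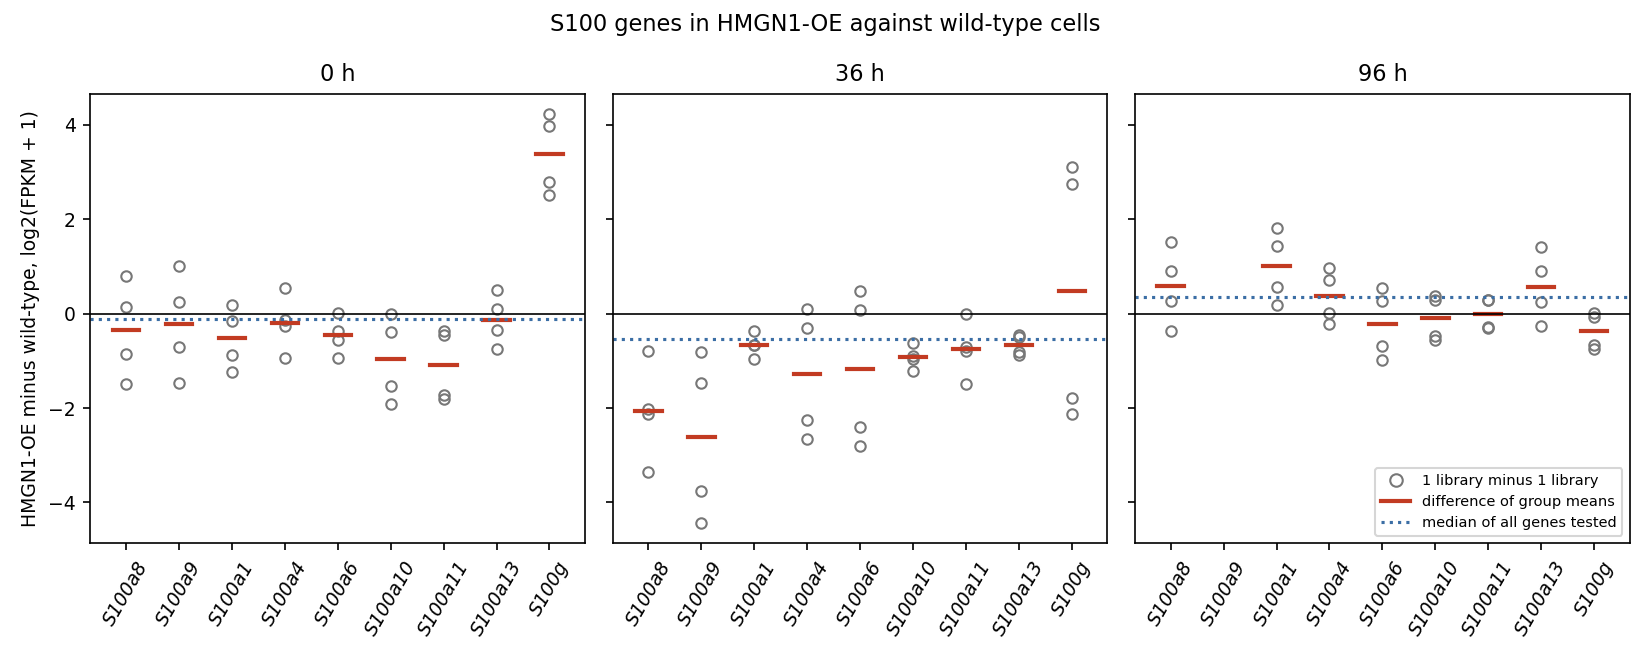
Differences of HMGN1-OE from wild-type in log2(FPKM + 1) (vertical) for each S100 gene (horizontal) at 0, 36 and 96 h; open circles are the 4 differences of single libraries, red bars the difference of group means and the dotted line the median of all genes tested. S100g lies at 3.38 at 0 h, S100a9 at -2.62 at 36 h, and S100a9 at 96 h is left out.

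Targets and receptors of S100 proteins were followed as a list of 14, of which 13 were tested; Cd36 stood at 0.187 FPKM or less. From 0 to 96 h, Ahnak and Anxa1 were called higher in both genotypes. Anxa1, the partner of S100A11, stood at 323 and 505 FPKM in WT at 0 h and at 1859 and 805 FPKM at 96 h, a rise of 1.6 in log2 (limma SE 0.62, adjusted p = 0.0132). In HMGN1-OE it rose by 1.69 (adjusted p = 0.0115). Ahnak, a scaffold held by S100A10 and annexin A2, rose by 1.76 and 1.44, from at most 0.363 FPKM at 0 h to between 2.18 and 4.07 FPKM. It stood at 0.454 FPKM or less at 0 and 36 h and passed the filter only through the libraries at 96 h. Its rise partly follows from that selection and is a description. In WT 6 of 13 were called lower, beside 77.2% of all genes, and in HMGN1-OE 4 of 13, beside 62.4%. The 2 called higher, Ahnak among them, stood beside 4.31% and 5.08%. The list's median change of -0.83 and -0.57 lay above that of all genes. Cacybp, which binds S100A6, changed by -3.96 and -2.80, and Bsg, a receptor for S100A9, by -2.98 and -2.36, all called and all below the median gene. Tlr4, a receptor for calprotectin, fell by 1.95 in WT (adjusted p = 0.000381) and had a change of -0.87 in HMGN1-OE (adjusted p = 0.122). Ager, the receptor RAGE, stood at 0.957 to 3.80 FPKM in all libraries. Between genotypes 0 of the 13 were called by limma at any time.

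Anxa2, the partner of S100A10, was not called from 0 to 96 h, at -0.83 in WT (adjusted p = 0.183) and -0.57 in HMGN1-OE (adjusted p = 0.380). The ratio of S100a10 to Anxa2 was 0.158 and 0.184 in WT and 0.0715 and 0.0907 in HMGN1-OE at 0 h. By 36 h the ratio was 0.464 and 0.232 in WT and 0.461 and 0.304 in HMGN1-OE, above 0 h in both genotypes. It ended at 0.114 and 0.223 in WT and at 0.0942 and 0.145 in HMGN1-OE at 96 h. S100a10 thus stayed below its partner in every library, nearest to it at 36 h.

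Likeness of pattern was measured as Pearson's r of log2(FPKM + 1) over the 12 libraries, which share culture times and scaling, and is a description with no test. The genes most like S100a8 were Chi3l4, Olfm4 and Chi3l3, each with r = 0.99. Chi3l3, a chitinase-like protein of neutrophils, stood between 2.08 and 121.9 FPKM before 96 h and between 2774 and 7321 FPKM at 96 h. For S100a9 the nearest genes were Mir27a, Pla2g7 and Pgr, with r between 0.61 and 0.65. Without WT library a at 96 h, they were Camp, Stfa1 and Chi3l3, with r between 0.995 and 0.997, and r between S100a8 and S100a9 moved from 0.40 to 0.98. The single value thus set which genes were like S100a9.

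The genes most like S100g were Ltbp1, Gas6 and Sptssb, with r between 0.98 and 0.99. With centred libraries they were H6pd, Tle4 and Sptssb, with r between 0.96 and 0.97. Sptssb, a subunit of the enzyme that starts sphingolipid synthesis, stood at 91.1 and 60.03 FPKM in HMGN1-OE at 0 h, 0.226 and 27.6 FPKM in WT at 36 h and at most 0.131 FPKM at 96 h. It shared with S100g the gap between the WT libraries at 36 h. Ltbp1, which binds latent TGF-beta, stood at 7.22 and 6.36 FPKM in HMGN1-OE at 0 h and at 0.0882 FPKM or less at 96 h. S100a6 was the gene most like S100a4 of all 11515 others, with r = 0.79, and the reverse rank was 34. Without WT library a at 96 h, r was 0.92 and each was the nearest gene of the other. With centred libraries r was 0.93, with S100a6 at rank 21 for S100a4 and S100a4 at rank 132 for S100a6. For S100a1 and S100a13, which lie head to head, r was 0.96, with rank 566 for S100a13 among genes like S100a1, and 0.72 with centred libraries.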

How the data were processed

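RNA-seq was analysed for 12 libraries in 6 groups, wild-type and HMGN1-OE progenitors at 0, 36 and 96 h. The authors extracted RNA from equal numbers of counted cells, added ERCC synthetic RNAs and made polyA libraries that do not mark strand. The deposited values are FPKM for 23309 genes, normalized by the authors by loess on the ERCC RNAs. The sources differ on earlier steps: the submitters' processing notes list HISAT, Cufflinks 2.0.0 and mm9, and the methods name Bowtie and RPKM. Depth is unknown, since the table holds no read counts, so no counting error is given. All sample columns were used, and each was assigned to its group by genotype and time.

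Deposited FPKM were taken as log2(FPKM + 1), and a gene was kept if 2 or more of the 12 libraries had 1 FPKM or more. limma 3.58.1 in R 4.3.3 (trend, 6 group means, two-sided, Benjamini-Hochberg over 11516 genes) tested 11 comparisons, with calls at an adjusted p under 0.05. Prior degrees of freedom were infinite. The fit was tested on simulated data. Alternatives were a pseudocount of 0.1, no filter, centring of the libraries on the median of the tested genes, no trend, no moderation and each library left out. Tables and figures used Python 3.11.15, numpy 2.4.6, pandas 2.3.3 and matplotlib 3.10.9.

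The members and lists were chosen with earlier results of these data known. The text names the 9 members, other S100 genes, a list of 14 partners and receptors, cell type markers, the 3 genes most like each member its results turn on, and genes low in a single library. S100a9 was not tested in comparisons with wild-type cells at 96 h. Positions and sequences are of RefSeq GRCm38.p6, names and overlaps of GENCODE vM21.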

Additional observations from a re-analysis of the deposited data

Results flagged for a closer look

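The change of S100g over time differed between the genotypes by limma's test of the interaction of genotype with time. From 0 to 36 h the log2 change was -1.51 for wild-type and -4.40 for HMGN1-OE cells, a difference of -2.89 (adjusted p = 0.0101). From 0 to 96 h it was -4.97 for wild-type and -8.72 for HMGN1-OE cells, a difference of -3.75 (adjusted p = 3.07e-05). The adjusted p-values ran from 1.21e-07 to 1.0 and from 8.13e-07 to 0.822 over the alternatives. S100g was below 1 FPKM in the 4 libraries at 96 h, so the size of the latter depends on the pseudocount, and it was -4.63 with 0.1 FPKM. The difference to 36 h was -0.45 without wild-type library b at 36 h and -5.33 without wild-type library a, where S100g stood at 82.5 and 1.84 FPKM, so its size depends on these 2 libraries.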

How the results depend on the processing

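No paired analysis was possible because the columns of the table do not carry the replicate numbers of the sample names: they end in 0 or 1, the names hold 1 or 2, and nothing ties these. Of 29 values of single members, 28 kept their direction and their side of the threshold with a pseudocount of 0.1, 24 without the trend, 16 with centred libraries, and 15 each with no filter and with no moderation. Of the 348 values with 1 library left out, 317 did. With no filter, and likewise with no moderation, 0 members were called between genotypes at 0 and 36 h, from 0 to 36 h in HMGN1-OE cells and in both interactions, 2 from 36 to 96 h in HMGN1-OE cells and 3 from 0 to 96 h in HMGN1-OE cells. Without the trend, 0 were called between genotypes at 0 and 36 h and in both interactions, and 1 from 0 to 36 h in HMGN1-OE cells. With centred libraries, 0 were called between genotypes at 0 and 36 h, from 0 to 36 h in HMGN1-OE cells and in both interactions, and, from 0 to 96 h, 7 in wild-type cells and 8 in HMGN1-OE cells. With a pseudocount of 0.1, 0 were called in the interaction to 36 h. The cause of these changes was not tested. The share of all genes called is not given for the other settings than centring, so the counts cannot be read as particular to the members.

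Centring moves all genes of a comparison by the same amount. Of 95 values of members in the 11 comparisons, 18 turned their sign with centring, and 9 of these were called when centred. Among those called as deposited, the sign turned for S100a10 (0.82) and S100a13 (0.86) from 36 to 96 h and S100a1 (0.0075) from 0 to 96 h, all in wild-type cells, and S100a13 was then called higher. The share of all genes whose sign turned is not given, so the count of turns describes the members and sets them apart from no other genes. The centred medians of all genes lay between -0.05 and 0.11. The fall of S100g from 36 to 96 h in HMGN1-OE cells was -2.98 there, with adjusted p = 0.0646. With 1 library left out, the difference of S100a8 between genotypes ran from -1.17 to 0.47 at 0 h, turning without wild-type library a, and from -0.049 to 1.20 at 96 h, turning without wild-type library b.

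With 1 library left out, the members called numbered 1 between genotypes at 0 h, 0 to 2 at 36 h and 0 at 96 h. They numbered 0 to 1 in wild-type cells and 1 to 2 in HMGN1-OE cells from 0 to 36 h, 4 to 6 and 5 from 36 to 96 h, and 3 to 6 and 4 to 5 from 0 to 96 h. In each interaction they numbered 0 to 1. The share of all genes called in these fits is not given, so the counts cannot be set against it. Where a group kept 1 library, that library was assumed to vary like the others. Depth is unknown, so precision rests on 2 libraries a group.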
